A study of Homo sapiens with 8 samples.

Results

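The genes described here are the sensors and adaptors through which a cell recognises foreign RNA. The cytosolic sensors were DDX58 (RIG-I, now RIGI), IFIH1 (MDA5), DHX58 (LGP2) and EIF2AK2 (PKR), the endosomal sensor was TLR3, the adaptors were MAVS, TICAM1 (TRIF) and TMEM173 (STING, now STING1), and the transcription factors were IRF3 and IRF7. They were found by gene name among the non-control probes of the arrays, and all 10 of 10 were there, out of 43317 gene names. They were represented by 17 probes, and 5 of the genes had more than 1 probe. The brightest probe stands for the gene below, and other probes are given where they differ. In hg19, the brightest probes lie on chromosome 9 at 32455398 to 32455457 for DDX58, on chromosome 2 at 163128806 to 163128865 for IFIH1, on chromosome 17 at 40253459 to 40253518 for DHX58, on chromosome 5 at 138855597 to 138855656 for TMEM173 and on chromosome 19 at 4815995 to 4816054 for TICAM1, all on the minus strand.

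RNA was compared on 8 2-colour Agilent arrays, each setting a culture that received a short RNA (Cy5) against a mock culture of the same line without transfection (Cy3). A498 and 786-O, both renal cancer lines, each received miR-139-5p on 1 array and miR-139-3p on another. MDA-MB-231, a breast cancer line, received si-GINS1_1 or si-GINS1_2, which are siRNAs against the replication factor gene GINS1, and HCT116, a colorectal cancer line, received miR-490-5p or miR-490-3p. Each combination of RNA and line was measured on 1 array, so the 2 arrays of a line carried different RNAs. No arm received an unrelated control RNA, so a ratio contains the transfection itself along with the sequence given. The dyes were not swapped. Neither the labels nor the methods say whether the 2 mock channels of a line came from 1 extract, and the spread between arrays may therefore leave out the spread of the mock cells. Outside the renal pair, the line and the RNA cannot be told apart.

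All 8 arrays lay on 1 slide, and 24983 to 29688 of 58201 probes had a signal clear of background in the mock or the transfected channel. GINS1 was at log2 ratios of -1.31 and -1.92 on the arrays of its siRNAs and between -0.11 and 0.55 on the other arrays. The kidney transcription factor gene PAX8 had mock levels of 8.13 to 8.30 in the renal lines against 6.33 to 6.76 in the other lines, and the intestinal factor CDX2 was above background in HCT116 only. CDX1 and EPCAM of the same list were above background in all 4 lines, and the breast markers did not separate 786-O from MDA-MB-231, with 6 of 7 above background in each. VIL1 and CDH17, which also mark intestinal epithelium, were not well above background in HCT116. Low signals of the leukocyte gene PTPRC, between 6.02 and 6.24, were above background in all 4 lines.

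RIG-I and MDA5 are helicases that bind double-stranded RNA in the cytosol and signal through MAVS on mitochondria. LGP2 is their relative without the signalling domain. TLR3 reads double-stranded RNA in endosomes and signals through TRIF. PKR stops translation when double-stranded RNA activates it. STING serves the DNA sensor cGAS and also cooperates with RIG-I. IRF3 and IRF7 carry the signal to the interferon genes, and many of the sensors are themselves induced by interferon.

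The miRNAs are shown because a short RNA is what the sensors were exposed to. These are the mature sequences of RefSeq (GRCh38.p14), not those of the transfection reagents, with the seed, bases 2 to 8, in capitals. The strands given to the renal lines come from chromosome 11, within the gene PDE2A (minus strand, 72615066 to 72615088 for the 3p and 72615102 to 72615124 for the 5p strand), and those given to HCT116 from chromosome 7, within CHRM2 (plus strand, 136903205 to 136903224 for the 5p and 136903242 to 136903263 for the 3p strand).
hsa-miR-139-5p: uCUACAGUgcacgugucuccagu
hsa-miR-139-3p: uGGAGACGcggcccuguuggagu
hsa-miR-490-5p: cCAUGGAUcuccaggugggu
hsa-miR-490-3p: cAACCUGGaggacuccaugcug
They are 20 to 23 bases long and share no seed. Their G and C content ran from 52.2% in miR-139-5p to 65.2% in miR-139-3p.

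The first question was which line holds the machinery to sense such an RNA, and this was read from the mock channel. Mock levels are log2 of the Cy3 signal after normalization within and between arrays, and they can be compared between lines for 1 probe but not between genes. A498 had the highest mock level for 8 of the 10 genes, where 22.6% of 15173 genes had theirs in A498. The exceptions were MAVS and IRF3, whose brightest probes were highest in MDA-MB-231. The 15173 genes had mock signals well above background on all 8 arrays, which DHX58 and IRF7 did not have in 786-O. DDX58, DHX58, TLR3, TICAM1, TMEM173 and IRF7 had their lowest level in 786-O, and IFIH1, EIF2AK2, MAVS and IRF3 in other lines.

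For DDX58, the 2 mock levels were 9.12 and 9.24 in A498, followed by MDA-MB-231 with 8.09 and 8.12, HCT116 with 7.07 and 7.03, and 786-O with 6.84 and 6.79. The order of the lines was clear of the gap between the arrays of a line, which was at most 0.12 for this gene. Mock DDX58 in A498 was 5.14-fold that in 786-O. IFIH1 had 9.03 and 9.05 in A498 against 6.87 and 6.89 in 786-O, a 4.47-fold difference. For IFIH1 the lowest lines, 786-O and HCT116, differed by 0.10, less than the 0.13 between the 2 HCT116 arrays.

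DHX58, the regulator of RIG-I and MDA5, had the widest range among the genes measured in every line. A498 had 9.30 and 9.33, MDA-MB-231 7.98 and 8.01, HCT116 6.23 and 6.15, and 786-O 5.96 and 5.87. The A498 level was 10.6-fold that of 786-O, where only 1 of 2 mock signals was well above background. EIF2AK2 varied less, by 1.74-fold between A498 and 786-O, and it was lowest in MDA-MB-231 with 8.26 and 8.38.

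TLR3 stood apart in A498, at 8.14 and 8.21, while the other 3 lines lay between 5.94 and 6.48. The A498 level was 4.69-fold that of 786-O. Its adaptor TICAM1 had 10.28 and 10.56 in A498 and 10.29 and 10.33 in HCT116, which do not differ beyond the gap between arrays, and it was lowest in 786-O with 9.28 and 9.17. TMEM173 had 10.41 and 10.47 in A498 and 8.41 and 8.34 in 786-O, a 4.18-fold difference, with MDA-MB-231 and HCT116 between them.

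IRF3 and MAVS, which act downstream of the sensors, were not highest in A498 on their brightest probes. That of MAVS ran from a mean of 8.43 in A498 to 9.20 in MDA-MB-231, a 1.71-fold range. On it, A498 and 786-O differed by less than the arrays of 786-O did. The order depended on the MAVS probe. Another was highest in HCT116, at 8.48 and 8.44 against 7.78 and 7.77 in MDA-MB-231. A further probe was highest in A498, at 7.04 and 6.99 against 6.61 and 6.60 in MDA-MB-231. IRF3 spanned only 0.28 over the 4 lines. IRF7, the interferon-induced factor, was at 9.80 and 9.65 in A498 and was not well above background in 786-O, which makes the A498 level at least 14.5-fold higher. MDA-MB-231, at 8.38 and 8.41, and HCT116, at 7.51 and 7.41, lay between these.

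Between the renal lines, 7 of the 10 genes were higher in mock A498 by at least 1 on the log2 scale, where 5.31% of the 15173 genes were. DHX58 and IRF7 are among the 7 but, with dim mock signals in 786-O, not among the 15173 genes. The mock channels of a line may be technical repeats, so no test was made of these levels. The standard deviation of a single mock channel was 0.05 to 0.07 on the log2 scale. A498 stayed highest for 8 genes under all 4 other ways of normalizing or summarising the mock signals. The plot of mock levels shows the 4 lines by gene.

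**Figure D1:**
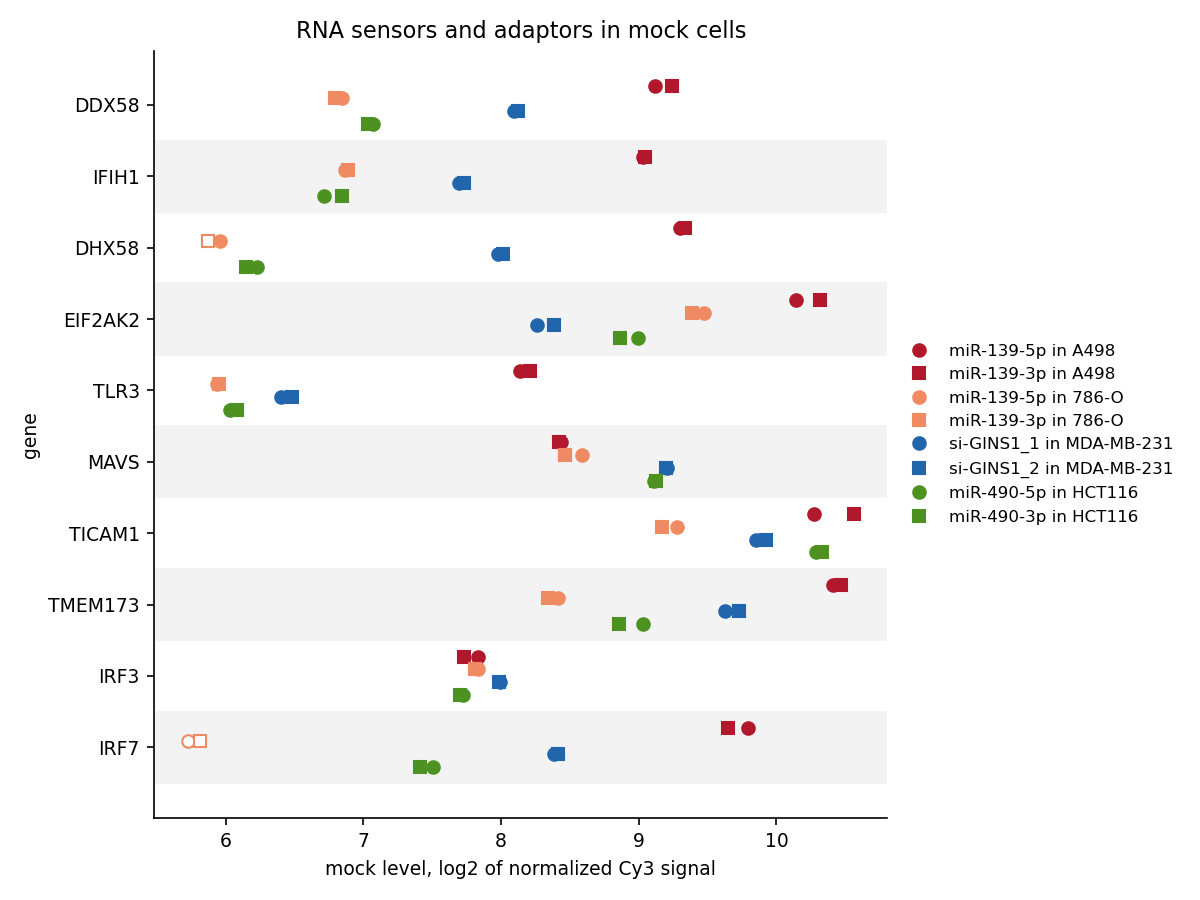
Mock (Cy3) level of each sensor or adaptor, as log2 of the normalized signal, for the 2 arrays of each line (circle and square); open symbols are mock signals not well above background. A498 is highest for 8 of the 10 genes, and for MAVS and IRF3 the lines lie within 0.77 and 0.28 of each other.

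In A498, the cytosolic sensors lay below mock after both strands and lower after miR-139-3p, the former with a direction that depended on the scaling. In these bulk cultures, fewer expressing cells and less RNA per cell cannot be told apart. Log2 ratios of transfected over mock were -0.23 after miR-139-5p and -0.86 after miR-139-3p for DDX58. They were -0.26 and -0.94 for IFIH1, -0.51 and -0.58 for DHX58, and -0.20 and -0.67 for EIF2AK2. After miR-139-3p, all 10 genes were below 0, from -0.09 for IRF3 to -0.94 for IFIH1, with a median of -0.54 against 0.01 over all genes. After miR-139-5p, 8 of 10 were below 0 with a median of -0.19. IRF7 had -0.18 and -0.54 and TMEM173 -0.30 and -0.55 in the same order of strands, while TLR3 had -0.06 and -0.23. MAVS and TICAM1 lay on both sides of 0 on their brightest probes. The other MAVS probes lay below 0 after both strands, at -0.32 and -0.22, at -0.08 and -0.15, and at -0.05 and -0.11.

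The direction after miR-139-5p depended on the scaling and that after miR-139-3p did not. With each array centred on its median in place of the loess curve, the median of all genes on the miR-139-5p array moved to 0.14, and 4 of the 10 genes stayed below it. On the miR-139-3p array of A498 all 10 stayed below the shifted median of 0.04. On the array of si-GINS1_1 the median of all genes moved to 0.18, and on the others it stayed within 0.1 of 0.

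The mean of the 2 A498 arrays was tested against 0 with limma. None of the 10 genes was called in A498 at an adjusted p of 0.05, where 0.024% of 25009 probes were called. Before adjustment, 4 genes had p below 0.05, against 4.73% of all probes. They were TMEM173 at -0.43 ± 0.17 (SD, n = 2), DHX58 at -0.55 ± 0.05, IFIH1 at -0.60 ± 0.48 and DDX58 at -0.55 ± 0.45. The smallest limma adjusted p was 0.381, for TMEM173. The 95% intervals of these means ran from -1.02 to -0.08 for DDX58 and from -0.84 to -0.25 for DHX58. The second DDX58 probe had -0.16 and -0.87, close to the first.

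In 786-O, which received the same 2 RNAs, no gene lay further than 0.17 from mock with the background offset of 50, which pulls the ratios of dim probes towards 0. In the scanner's own ratios, which have no such offset, the dim DHX58 was at -0.91 and -1.91, TLR3 at -0.89 and -0.50 and IFIH1 at 0.33 and -0.14. DDX58 was at 0.10 and 0.07, IFIH1 at 0.17 and -0.05, EIF2AK2 at -0.08 and -0.11, and TMEM173 at -0.04 and -0.05. MAVS had 0.13 and 0.15 and TICAM1 -0.15 and 0.00, and the other 4 genes lay between -0.07 and 0.01. In 786-O, DHX58 was not above background after miR-139-3p and IRF7 after neither strand, so 8 genes were tested there. Of these, 0 were called by limma, and 0 had an unadjusted p below 0.05, where 0.0208% of 23985 probes were called and 2.06% had such a p.

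**Figure D2:**
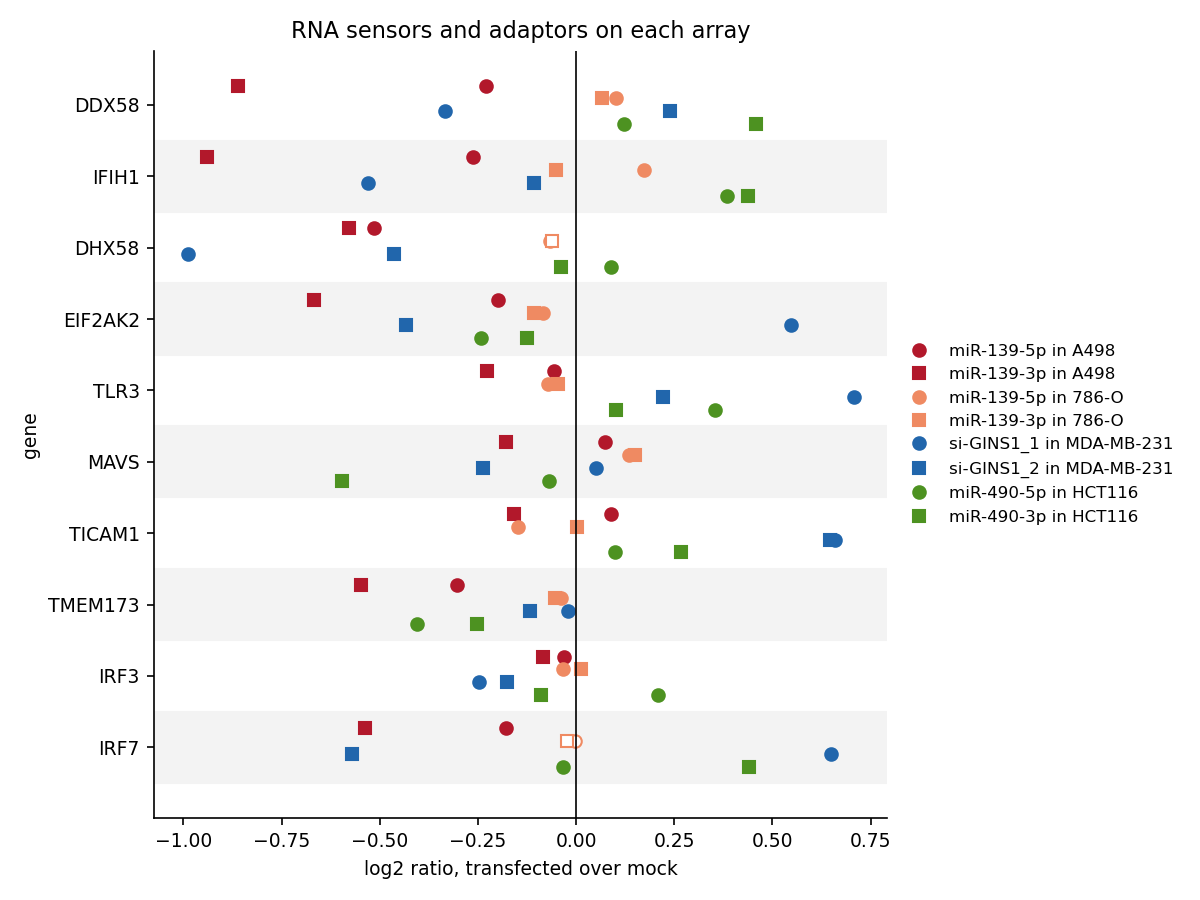
Log2 ratio of transfected over mock for each sensor or adaptor on each of the 8 arrays, coloured by line, with circle and square for the 2 RNAs of a line; open symbols are not well above background in either channel. DDX58 and IFIH1 lie at -0.86 and -0.94 after miR-139-3p in A498, while all 786-O values, several of them dim, lie within 0.17 of 0 at an offset of 50.

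The renal lines were then compared at matched RNA. Both A498 arrays lay below both 786-O arrays for 7 of the 10 genes, DDX58, IFIH1, DHX58, EIF2AK2, MAVS, TMEM173 and IRF7, where 17.4% of 22183 probes were arranged so. The 22183 probes were above background in either channel on each array of the renal lines. For DHX58 and IRF7 the 786-O values were dim, so neither was among the 22183. With arrays centred on their medians, DDX58, IFIH1 and DHX58 were still arranged so relative to the median of all genes on each array. Without that reference 1 gene, DHX58, was, while the other settings gave 6 to 8 genes. The scanner ratio, which has no offset, gave 6, with IRF3 and without DHX58 and IRF7. In that ratio DHX58 was at -0.63 and -0.68 in A498 and lower, at -0.91 and -1.91, in 786-O. The difference of the means, A498 minus 786-O, was -0.63 for DDX58 (95% interval -1.29 to 0.03), -0.66 for IFIH1 (-1.26 to -0.06) and -0.38 for TMEM173 (-0.65 to -0.11).

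Of the 8 genes tested for this contrast, 0 were called by limma, and 0% of 22179 probes were. IFIH1 and TMEM173 had an unadjusted p below 0.05, where 0.83% of all probes had one. The intervals of EIF2AK2, -1.12 to 0.44, and MAVS, -0.68 to 0.29, hold the size seen for DDX58. That of TLR3 ran from -0.52 to 0.35. For TICAM1 the interval was -0.25 to 0.33 and for IRF3 -0.33 to 0.23. Without the miR-139-3p array of A498, the DDX58 difference was -0.32 and that of IFIH1 also -0.32, and without the miR-139-5p array of A498 the DDX58 difference was -0.95.

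**Figure D3:**
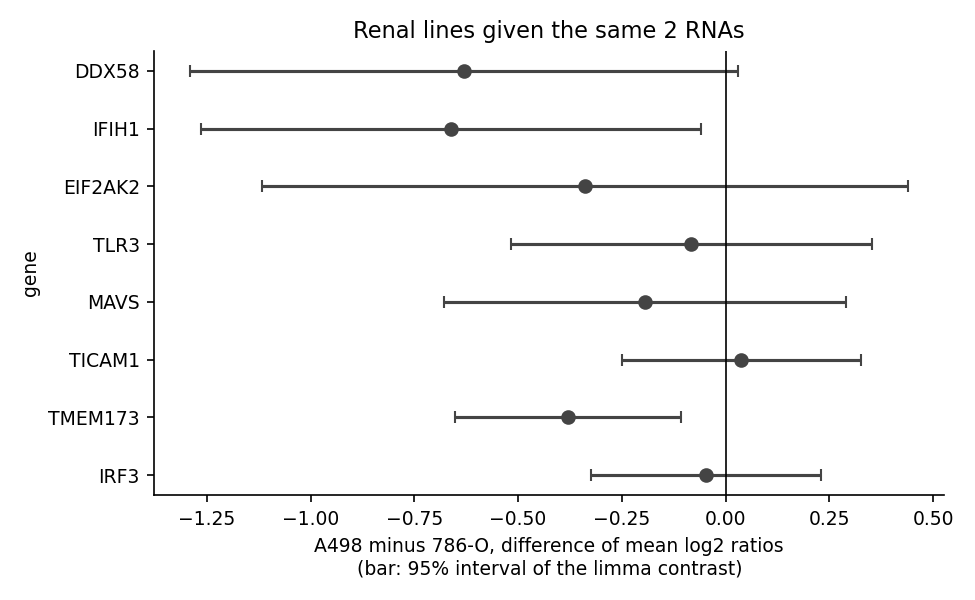
Difference between A498 and 786-O in the mean log2 ratio of transfected over mock, for the 8 genes above background on all 4 arrays; points are limma estimates and bars their 95% intervals. IFIH1 at -0.66 and TMEM173 at -0.38 have intervals that exclude 0, and no gene passed adjustment over all probes.

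DDX58, IFIH1 and DHX58 had both a high mock level in A498 and ratios below 0 there, and each ratio contains the same mock signal. In the A498 cultures that received a miRNA, 8 of the 10 genes still had levels above the mock levels of 786-O. DDX58, IFIH1 and DHX58 were among them, while MAVS and IRF3 were not. The lowest transfected level of DDX58 in A498 was 8.38, against a highest mock level of 6.84 in 786-O. For IFIH1 the corresponding values were 8.11 and 6.89, and for DHX58 8.76 and 5.96.

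The strands were compared in the same lines. The 3p minus 5p difference of DDX58 was -0.63 in A498 and -0.03 in 786-O, and for IFIH1 it was -0.68 and -0.22. Over both lines limma called 0 of 8 genes for this contrast, where 0% of 22179 probes were called, and 0 of the 8 had an unadjusted p below 0.05, against 0.681% of probes. It called 0 of 9 genes for miR-139-5p alone, with 0.0129% of probes called, and 0 of 8 for miR-139-3p alone, with 0% called, and for neither did any of these genes have an unadjusted p below 0.05, against 2.55% and 4.43% of probes. The mean of DDX58 after miR-139-3p, -0.40, rested on A498, and it was 0.07 without that array.

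MDA-MB-231 was the line where genes passed the test, and they went in opposite directions. TICAM1, the TLR3 adaptor, was at 0.66 with si-GINS1_1 and 0.65 with si-GINS1_2. Its mean of 0.65 ± 0.009 (SD, n = 2) had a standard error of 0.08 and a limma adjusted p of 0.0148, so TICAM1 rose. The second TICAM1 probe lay at 0.30 and 0.12 and did not pass, with a limma adjusted p of 0.129.

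DHX58 was at -0.99 with si-GINS1_1 and -0.46 with si-GINS1_2. It fell by 0.73 ± 0.37 (SD, n = 2) on the log2 scale, with a standard error of 0.12 and a limma adjusted p of 0.0280. These 2 of 10 genes were called where 6.4% of 27798 probes were called in MDA-MB-231, 3.55% lower and 2.85% higher. Before adjustment, 4 of the 10 had p below 0.05, against 24.4% of all probes. TLR3 was above mock with both siRNAs, at 0.71 and 0.22, and did not pass, with a limma adjusted p of 0.0899. With the scanner's own log ratio 0 genes were called, and leaving out an array gave 0 to 3, with 0 when either 786-O array was left out, 1 when either A498 array was and 3 without si-GINS1_2.

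The other genes differed between the siRNAs or stayed near mock. EIF2AK2 was at 0.55 with si-GINS1_1 and -0.43 with si-GINS1_2. IRF7 was at 0.65 and -0.57, and DDX58 at -0.33 and 0.24. For these 3 genes the siRNAs lay on opposite sides of mock, so their line mean describes neither array. IFIH1 was below mock with both, at -0.53 and -0.11, as was IRF3 at -0.25 and -0.18, while TMEM173 was at -0.02 and -0.12. One of the MAVS probes reached 0.85 with si-GINS1_1, where the brightest was at 0.05, so the probes of MAVS disagree on that array.

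In HCT116, RIG-I and MDA5 lay above mock and STING below, relative to the median of all genes, under loess and under median centring. IFIH1 was at 0.38 after miR-490-5p and 0.44 after miR-490-3p, DDX58 at 0.12 and 0.46, and TLR3 at 0.35 and 0.10. The second DDX58 probe had 0.34 and 0.76. TMEM173 was at -0.41 and -0.25, and EIF2AK2 at -0.24 and -0.12. Of the 10 genes 0 were called by limma in HCT116, where 3.07% of 26879 probes were called. TMEM173, with a mean of -0.33 ± 0.11 (SD, n = 2) and a limma adjusted p of 0.0831, was the only one with an unadjusted p below 0.05 on its brightest probe, against 19.3% of all probes.

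The 2 strands of miR-490 differed for IRF7 and, though not on every probe, for MAVS. The brightest MAVS probe was at -0.07 after miR-490-5p and -0.59 after miR-490-3p. In the same order its other probes were at -0.26 and -0.80, at -0.17 and -0.31, and at -0.13 and -0.13. IRF7 was at -0.03 and 0.44. DHX58 had 0.09 and -0.04, IRF3 0.21 and -0.09, and TICAM1 0.10 and 0.27. Each of these strands was measured on 1 array in HCT116, so the differences between them have no replicate check.

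Over the 4 lines, the F test of any difference between line means was passed by 0 of the 8 genes tested, where 0.15% of 20635 probes passed. Before adjustment 4 of the 8 had p below 0.05, against 14.2% of all probes. TICAM1 had the smallest limma adjusted p, 0.135. Outside the renal pair this test compares lines that also received different RNAs.

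The ratios of DDX58 over the 8 arrays were set against those of 16361 genes by root mean square difference. Among the 5 nearest were NFS1, a cysteine desulfurase, at 0.17, PARP12, an interferon-induced ADP-ribosyltransferase, at 0.18, the transcript ENST00000605188 at 0.18, and DDX60L, an interferon-induced helicase gene, at 0.18. IFIH1 was the sixth nearest, at 0.18. TMEM173 and IRF3 came at ranks 2473 and 2567, TLR3 at 10353, EIF2AK2 and TICAM1 at 10791 and 11162, and MAVS at 12599.

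Other genes of the pathway were taken from 7 lists. In A498 the list of 23 interferon-induced effectors had a median of -0.29 after miR-139-5p and -0.69 after miR-139-3p, and 7 of them were at or below -1 on the latter array (IFI27, IFI44, IFI44L, IFIT1, IFIT2, IFIT3 and RSAD2), where 0.148% of probes were. IFIT2, which binds viral RNA, was at -1.04 and -1.37. In 786-O the medians were 0.10 and -0.07, against medians of all genes within 0.01 of 0. After miR-490-3p in HCT116 the median was 0.37, IFIT2 was at 1.63, and 3 of the 17 genes above background were at or above 1, where 0.346% of probes were.

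The limma test called 0 of these 23 effectors in A498, where 14 had an unadjusted p below 0.05 against 4.73% of all probes, and 3 of 23 in MDA-MB-231, all lower, where 3.55% of all probes were called lower. In MDA-MB-231, 11 of 23 had an unadjusted p below 0.05, against 24.4% of all probes. The 3 called there were IFIT3, at -1.15 with a limma adjusted p of 0.0287, IFIT1, at -1.13 with 0.0383, and IFI35, at -0.81 with 0.0312. Both IFIT genes encode RNA-binding proteins that hold back viral translation. The list's medians in MDA-MB-231 were -0.29 with si-GINS1_1 and -0.16 with si-GINS1_2. In 786-O 0 of 19 effectors were called and 0 had an unadjusted p below 0.05, against 0.0208% and 2.06% of all probes. In HCT116 0 of 16 were called and 3 had such a p, against 3.07% and 19.3% of all probes. The medians of this list kept their direction on all 8 arrays with the scanner ratio. Under median centring they did so when read relative to the shifted median of all genes on each array.

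Among the RNA co-sensors and RIG-I partners, 12 of 15 genes were tested in A498. There 0 were called and 6 had an unadjusted p below 0.05, against 0.024% and 4.73% of all probes. In MDA-MB-231, 12 were tested with 1 called and 3 at an unadjusted p below 0.05, against 6.4% and 24.4% of all probes. The 1 called was DDX60, a helicase that aids RIG-I, which fell by 0.75 on the log2 scale with a limma adjusted p of 0.0180. In 786-O 0 of 10 were called and 0 had an unadjusted p below 0.05, against 0.0208% and 2.06% of all probes. OASL, an OAS-like activator of RIG-I, was not called and had the widest range, from -2.36 with si-GINS1_1 to 1.03 after miR-490-3p, with -0.96 and -1.49 in A498.

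Of the 10 sensor outputs, 6 were above background in A498, and CCL5, a chemokine induced by IRF3 and IRF7, was called, where 0.024% of all probes were. It was at -0.82 and -0.91, a mean of -0.87 with a limma adjusted p of 0.0381. In MDA-MB-231 ATF3, a stress-induced factor, was the 1 called of 7, at 1.38 with a limma adjusted p of 0.0172, where 6.4% of all probes were called. IL6, an inflammatory cytokine, stood at 0.88 and 3.04. In 786-O 0 of 3 and in HCT116 0 of 2 outputs were called, against 0.0208% and 3.07% of all probes. In both lines 0 had an unadjusted p below 0.05, against 2.06% and 19.3% of all probes.

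In the remaining lists, 0 or 1 gene a list was called, where 6.4% of all probes were called in MDA-MB-231 and 3.07% in HCT116. The genes called in MDA-MB-231 were TRAF3, a ligase downstream of MAVS and TRIF, at 0.53 (1 of 14 signalling kinases and adaptors), TNFAIP3, the brake A20, at 0.62 (1 of 10 brakes of RNA sensing), IFNGR1, a chain of the interferon gamma receptor, at 0.76 (1 of 12 interferon receptors and ISGF3), and DDX41 at 0.60 (1 of 5 DNA sensors), with limma adjusted p from 0.0213 to 0.0362. In HCT116, PCBP2 (1 of 10 brakes), which promotes MAVS degradation, fell by 1.42 on the log2 scale, with log2 ratios of -1.21 and -1.64 and a limma adjusted p of 0.0136. It lay between -0.28 and 0.19 on the other 6 arrays. In A498 and 786-O limma called 0 genes of these 4 lists, against 0.024% and 0.0208% of all probes. Those with an unadjusted p below 0.05 numbered 0 to 2 a list, against 4.73% and 2.06% of all probes.

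**Figure D4:**
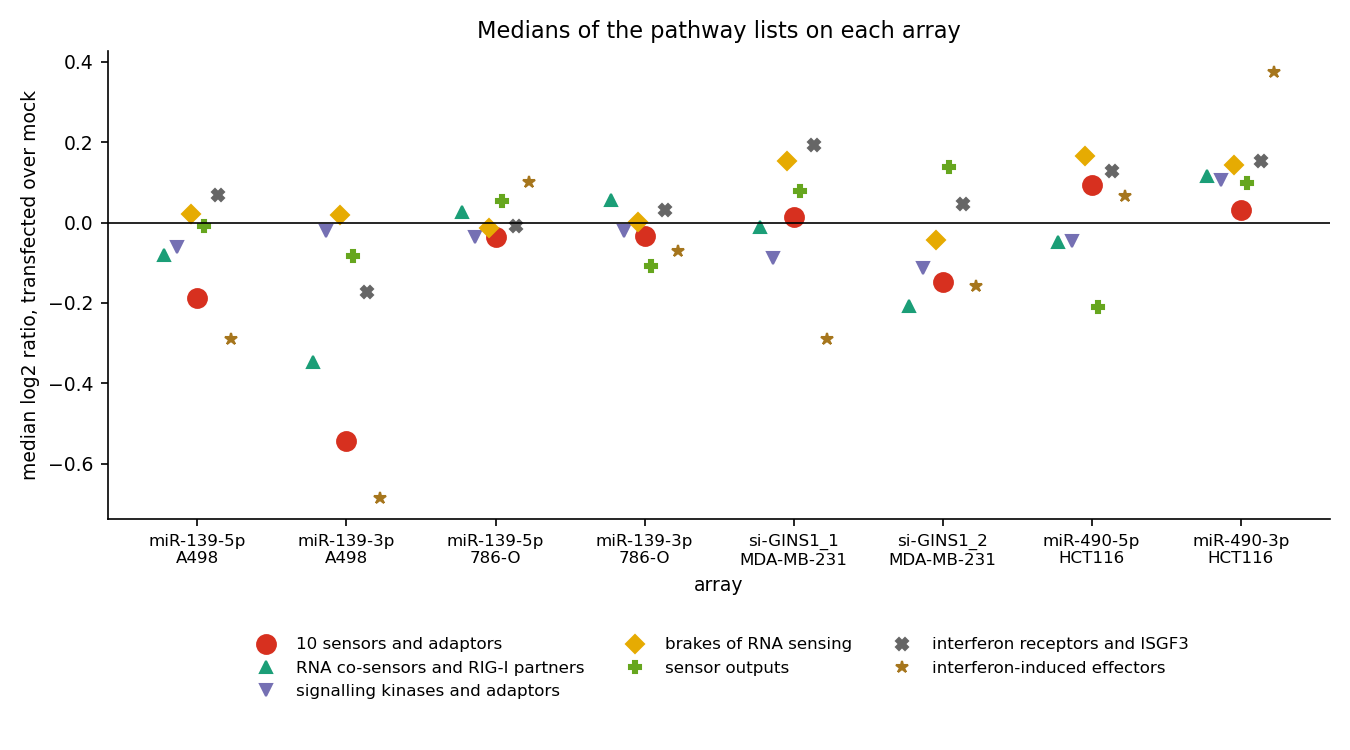
Median log2 ratio of transfected over mock on each array for the 10 sensors and adaptors and for 6 lists of other pathway genes, over genes above background (all 10 for the sensors and adaptors). The sensors and adaptors and the interferon-induced effectors have their lowest medians after miR-139-3p in A498, at -0.54 and -0.69.

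The promoter letters were searched for an interferon response element, the short sequence through which interferon induces many of its genes. The RefSeq promoter table (GRCh38.p14, 250 bases before to 50 after the start) held 6 of the 10 genes. The motif GAAANNGAAA, on either strand, was in 3 of these 6 and in 3.57% of all 35116 promoters. IFIH1 (chr2:162318824-162318853, minus strand) had 3 matches, EIF2AK2 (chr2:37156967-37156996, minus strand) 1 and TLR3 (chr4:186069142-186069171, plus strand) 1, shown here over 30 bases with a match in capitals.
IFIH1: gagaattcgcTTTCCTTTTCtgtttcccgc
EIF2AK2: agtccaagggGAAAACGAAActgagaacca
TLR3: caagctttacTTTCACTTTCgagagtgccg
Of these genes IFIH1 and EIF2AK2 were at -0.94 and -0.67 after miR-139-3p in A498 and TLR3 at -0.23, while DDX58, at -0.86, had no match to these letters in its window, as was the case for MAVS and TICAM1.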

How the data were processed

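Gene expression was measured on 8 Agilent 2-colour arrays in 4 cell lines. RNA was isolated with a phenol reagent and cells were transfected with a lipid reagent, according to the study's methods. The transfection time of the array cultures is not given in the sources used here. The deposited files hold the scanner software's Cy3 and Cy5 intensity for each spot, its background and a log10 ratio that the authors left as the software wrote it. The deposited series table held the same log10 ratios, which differed by 0 from the scanner files, with Cy5 over Cy3 as direction and a median of 0 per array. Probe positions in the files refer to hg19.

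Mean signals were background corrected (normexp, offset 50) and normalized by loess within each array, with control spots at weight 0 and flagged spots left out, and spots of a probe were averaged. Levels were then scaled between arrays by Aquantile. Probes that the scanner software marked well above background, in either channel and on each array compared, were tested with limma 3.58.1 in R 4.3.3, with a coefficient per line or per RNA and Benjamini-Hochberg adjustment over all probes tested. The threshold was an adjusted p of 0.05. A test of a line treats its 2 RNAs as replicates. The number of arrays limits the precision. Current symbols came from RefSeq accessions for 31104 probes.

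Listed genes were named if called, and then by a log2 ratio of at least 1 on an array, up to 4 a list, largest first, with the counts of others past it. The genes and lists were chosen with earlier results of these data known. Some results are not reported here. The scripts were tested on simulated data. The alternatives were the scanner ratio, offset 10, no background correction, median centring, other filters, the median over probes, each array left out, and a replicate block. A variance trend with a robust prior was added after seeing the data. Strands paired by line had a correlation of deviations of 0.08 and lines paired by strand of 0.11, each over 2 pairs.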

Additional observations from a re-analysis of the deposited data

Results flagged for a closer look

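DDX58 lay below mock on both A498 arrays and above mock on both 786-O arrays, although both lines received the same RNAs. The difference between the line means, A498 minus 786-O, was -0.63 on the log2 scale. It was brought up because every array of one line lay on the opposite side of mock from every array of the other. The limma contrast of the lines did not pass adjustment. With median centring in place of loess, DDX58 was at 0.11 after miR-139-5p in A498, and it was at -0.029 relative to the median of all genes on that array.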

How the results depend on the processing

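The counts of called genes were 0 under every alternative run for all comparisons but MDA-MB-231, and A498 had the highest mock level for 8 genes under each. In MDA-MB-231, 0 genes were called with the scanner log ratio (DHX58 at -0.95, TICAM1 at 0.71), and leaving out an array gave 0 to 3. Without an array of A498, 1 gene (TICAM1) was called, and without an array of 786-O 0 were, with the estimates at -0.73 and 0.65 and a change in the shared spread. Without si-GINS1_2 the 3 included TLR3 at 0.71. Of the fitted values of single genes, no called value turned sign under any alternative. Median centring turned 24 of 71, among them DDX58 and IRF3 in MDA-MB-231 (0.28 and 0.10), TLR3 and IRF3 for A498 minus 786-O (0.10 and 0.067) and DDX58 for miR-139-5p (0.10), and 17 of 71 turned relative to the shifted median of all genes, where IRF3 in MDA-MB-231 stayed below 0 at -0.025. The scanner ratio turned TLR3 for A498 minus 786-O (0.50). Leaving out an array turned DDX58 in MDA-MB-231 (range -0.33 to 0.24), TLR3 (-0.17 to 0.0029) and TICAM1 (-0.086 to 0.16) for A498 minus 786-O, and DDX58 for miR-139-5p, miR-139-3p and their difference (-0.23 to 0.10, -0.86 to 0.067 and -0.80 to 0.13). The cause was not tested. The replicate block, with strand or line as the pairing, called 0 genes for A498 minus 786-O and 0 for miR-139-3p minus miR-139-5p, as did the fits without it. Of the 80 single-array values, median centring turned the sign of 24, or of 13 relative to that median. Dim signals limit DHX58, TLR3 and IRF7 in 786-O.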
